A study of Mus musculus with 15 samples.

Results

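The genes described here are 41 mouse genes of the p53 pathway other than Cdkn1a, given as a list of symbols and matched through Ensembl IDs in the gene counts of primary lung fibroblasts. All 41 were among the 48440 genes of the count table, and all 41 were among the 18167 genes that had enough reads to be tested. The cells came from C57BL/6 mice, with 3 fibroblast strains per Atm genotype, and were cultured at 3% oxygen. There were 5 groups of 3 libraries: Atm+/+ cells at passage 2, Atm-/- cells at passage 2, Atm+/+ cells at passage 8, Atm-/- cells at passage 8, and Atm+/+ cells labelled passage 2 that were harvested 10 days after 10 Gy of X-rays, a dose used to bring on premature senescence. Neither the Atm allele nor the age or sex of the mice is given in the sources used here, and the other groups received no irradiation per the labels. Each strain is a primary culture, so replicates also differ by strain, and which libraries shared a strain is not stated.

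The transcription factor p53, encoded by Trp53, is held low in unstressed cells by Mdm2, which tags it for destruction, and by Mdm4, which blocks its activity. After DNA double-strand breaks the kinase ATM phosphorylates both p53 and its inhibitors, p53 builds up as a protein, and it switches on genes for growth arrest, apoptosis, DNA repair and metabolism, among them Mdm2 itself as negative feedback. Fibroblasts that enter senescence after irradiation or long culture are known for sustained activity of this pathway. In the order of the roles described here, 4 members are p53 and its negative feedback, 11 act in apoptosis, 9 in growth restraint and stress signalling, 5 in DNA repair and nucleotide supply, and 7 in metabolism and redox, while 5 are secreted, membrane or other proteins.

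Promoter sequence of members was read from RefSeq (GRCm38.p6) in windows of 300 bases, from 250 before to 50 after an annotated start. Windows were matched for 32 of the 41 members, which had 44 windows. Each window was searched on both strands for the p53 half-site, the 10-base unit of which a full p53 binding element holds a pair. The half-site letters occurred in 12 of the 44 windows (27.3%), in 11 genes, and in 2745 of all 32851 windows (8.36%). A full site, meaning a pair of half-sites at most 13 bases apart, was in 0 of the 44 windows and in 24 of all windows. No mismatch was allowed in either half-site. Elements with a mismatch, or outside the windows, were therefore not counted. Stretches of 30 bases follow for 9 of the 11 genes, chosen to show members that rose, fell or did not pass below, with the half-site in capitals and read along the strand of the gene, 5′ to 3′.
Ccng1: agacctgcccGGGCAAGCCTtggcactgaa
Mdm2: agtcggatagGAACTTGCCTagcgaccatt
Aen: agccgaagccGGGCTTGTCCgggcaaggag
Ei24: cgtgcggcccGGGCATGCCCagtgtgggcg
Polk: catgtagcttGAACTAGCCTcaaacttatt
Bax: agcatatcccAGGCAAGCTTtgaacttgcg
Sesn1: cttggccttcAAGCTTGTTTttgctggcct
Trp53: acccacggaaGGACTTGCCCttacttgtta
Gadd45a: ggttggctgaGGGCTAGCCCcatatctccg
The stretches lie at chr11:40755452-40755481 on the minus strand for Ccng1, chr10:117710925-117710954 on the minus strand for Mdm2 and chr7:78895927-78895956 on the plus strand for Aen. They lie at chr9:36797325-36797354 on the minus strand for Ei24, chr13:96519399-96519428 on the minus strand for Polk and chr7:45467080-45467109 on the minus strand for Bax. Those of Sesn1 (chr10:41887256-41887285, plus strand), Trp53 (chr11:69580274-69580303, plus strand) and Gadd45a (chr6:67037428-67037457, minus strand) complete the set. The half-site began 185 bases before an annotated start in Ccng1, 186 in Mdm2, 231 in Polk, 201 in Bax, 173 in Sesn1, 75 in Trp53, 40 in Gadd45a and 10 in Ei24. That start need not be the outermost start of the gene. The stretches of Sesn1 and Polk lie well inside the genes, which span chr10:41809935-41908424 and chr13:96480690-96542579. In Aen the same half-site began 121 bases before 1 annotated start and at base 11 of the transcript from another. The other 2 genes with a half-site were Ppm1d and Abhd4. Such a match describes letters in a window and was not measured as p53 binding in these cells.

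Library totals ran from 13.6 to 39.2 M counts. At equal depth, Atm+/+ passage 2 replicate 3 had 17213 genes detected and Atm-/- passage 8 replicate 3 had 15037, while the remaining 13 had 20088 or more, so results that rest on this pair are also given without them. Levels are normalised counts per M counts (CPM), listed in the order of replicates 1 to 3. Fold changes are on the log2 scale with a standard error (SE), and passing means a Benjamini-Hochberg adjusted p under 0.05 over all genes tested in edgeR's quasi-likelihood test. Fibroblast markers (8 genes, among them Col1a1, Pdgfra and Dcn) summed to 20338 to 34241 CPM in 4 groups and to 6419 to 10431 CPM in Atm-/- passage 8, where 7 of the 8 fell against Atm+/+ passage 8. Macrophage markers (8 genes, among them Adgre1, Csf1r and Lyz2) summed to 1677 to 2292 CPM in Atm+/+ passage 2, 766 to 1198 in Atm-/- passage 2 and 1048 to 1810 in irradiated cells, but to 61.5 to 92.5 in Atm+/+ passage 8 and 35.2 to 56.6 in Atm-/- passage 8. In bulk libraries, fewer cells of a type and less RNA per cell cannot be told apart. Atm itself, read first as a check of the genotype, was at 1.12, 0.877 and 3.10 CPM in Atm+/+ cells of passage 2, and Atm-/- cells had 1.61, 0.966 and 1.91 CPM. At passage 8 Atm stood at 1.52, 1.42 and 2.00 CPM in Atm+/+ cells, while Atm-/- cells had 0.873, 1.09 and 2.37 CPM. The genotypes overlapped at both passages, with a log2 difference of -0.17 (SE 0.52, edgeR adjusted p = 0.883) at the early passage. At the late passage it was -0.24 (SE 0.53, edgeR adjusted p = 0.788). A count over the whole gene therefore did not separate the labels, and Atm+/+ and Atm-/- below mean the libraries labelled so.

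Compared per transcript length, as TPM averaged over the 15 libraries, the members spanned a range from Phlda3, an inhibitor of Akt signalling, at 304 TPM and Bax, a pore-forming protein of the mitochondrial outer membrane, at 300.04 TPM down to Ddb2 at 1.45 and Perp at 1.14 TPM. Trp53 had 38.8 TPM and Mdm2 45.4 TPM on this scale. By mean CPM, 18 of the 41 members were highest in irradiated cells and 20 were lowest in Atm+/+ passage 2. The share of all genes with the same order was not counted, so these numbers describe the members alone. Summed over the 41 members, the level was 3215 to 3320 CPM in irradiated cells, above all other libraries. At passage 2 it was 2381 to 2580 in Atm+/+ and 2466 to 2526 in Atm-/- cells, and at passage 8 it was 2677 to 2836 in Atm+/+ and 2598 to 3067 in Atm-/- cells. Replicates spread most in Atm-/- passage 8, with a median coefficient of variation of 35.9% over the members, and least in irradiated cells at 6.29%. Within their groups, Atm+/+ passage 2 replicate 3 was the lowest library for 25 members and Atm-/- passage 8 replicate 3 for 26. Here too the share over all genes was not counted.

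**Figure D1:**
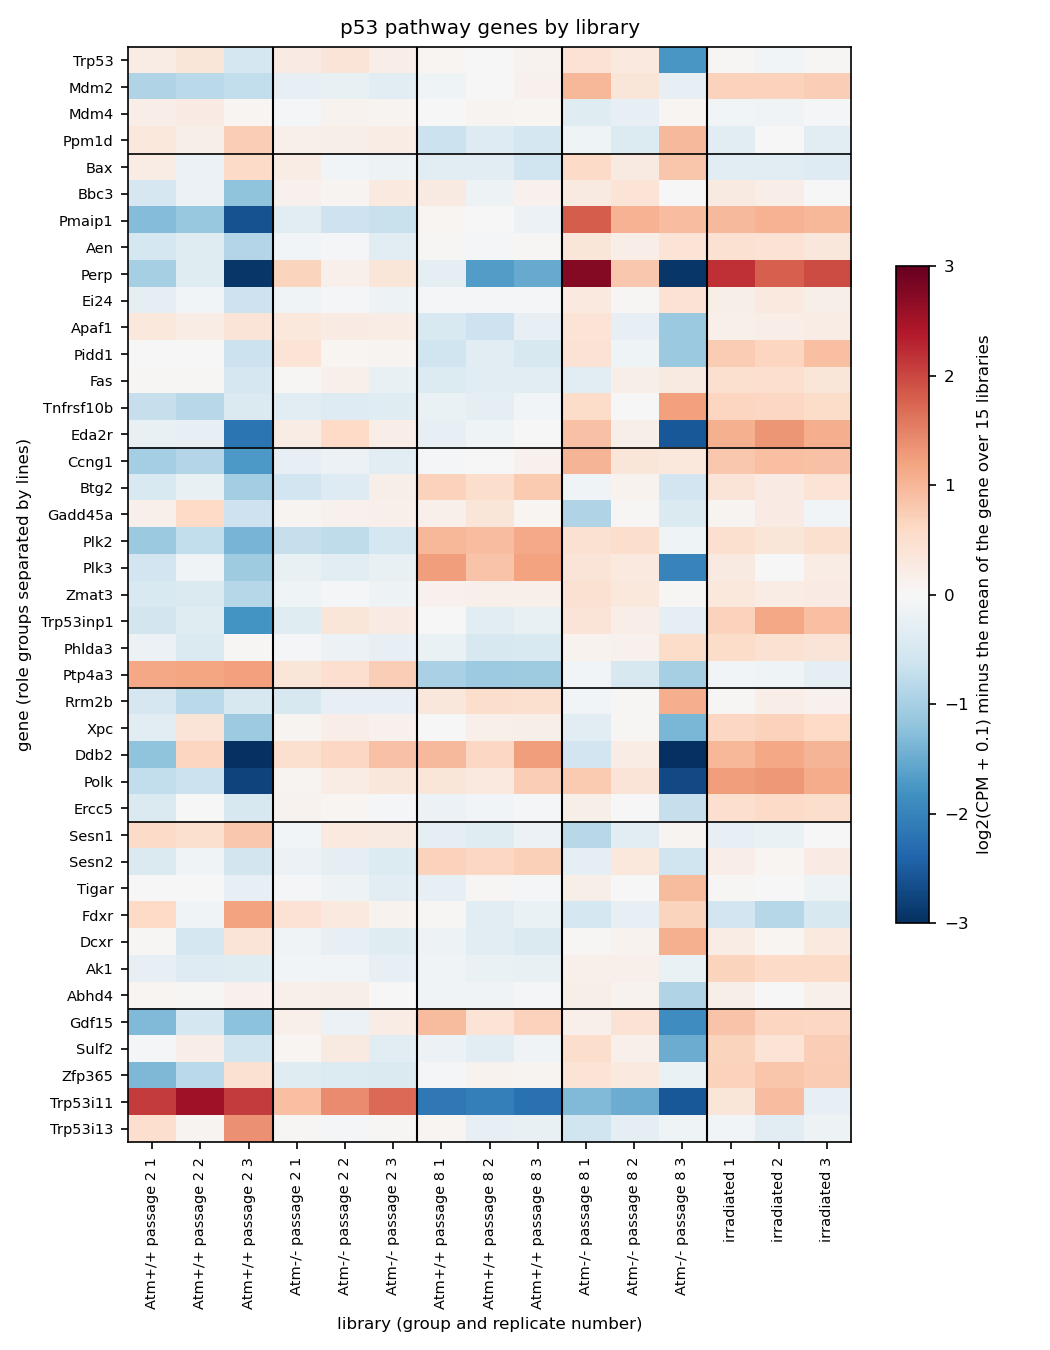
Heat map of the 41 genes (rows, in role groups) in the 15 libraries (columns); the colour is log2(CPM + 0.1) minus the mean of the gene, and values beyond 3 either way have the end colour. Irradiated libraries are red for most genes, Trp53i11 and Ptp4a3 are blue at passage 8, and replicate 3 of Atm+/+ passage 2 and of Atm-/- passage 8 differ from their groups.

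Irradiation was compared with unirradiated Atm+/+ cells at passage 2, the control for the state induced by X-rays. Of the 41 members, 21 rose and 6 fell, against 11% of all genes tested rising and 16.5% falling (27.5% either way). The median log2 difference was 0.73 over the members and -0.01 over all genes. The genes that rose included the cell-cycle regulator Ccng1, the feedback inhibitor Mdm2, the apoptosis genes Pmaip1, Aen and Tnfrsf10b and the kinase gene Plk2. At an unadjusted p under 0.05 there were 30 members, against 41.1% of all genes. In 36 members the groups did not overlap, against 55% of all genes. Trp53 itself did not pass among the 15 libraries.

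Among p53 and its negative feedback, Mdm2 passed and Trp53, Mdm4 and Ppm1d did not. Mdm2 (ENSMUSG00000020184, chr10:117688875-117710758 in GRCm38) had 42.4, 45.4 and 47.4 CPM in unirradiated and 128, 127 and 133 CPM in irradiated cells. Every irradiated library was well above every control, and Mdm2 rose by 1.52 log2 units (SE 0.22, edgeR adjusted p = 0.000534). Trp53 (ENSMUSG00000059552, chr11:69580359-69591873) had 85.6, 93.8 and 50.7 CPM in unirradiated and 74.4, 69.1 and 74.9 CPM in irradiated cells. The irradiated libraries lay between replicate 3, the lowest control, and the other 2 controls, and the difference was -0.08 (SE 0.39, edgeR adjusted p = 0.894). Trp53 passed as lower after irradiation in 1 of 16 other treatments, the fit of 13 libraries, at -0.26 (edgeR adjusted p = 0.0301). That fit lacks control replicate 3 and also the other library of the pair, which is outside this comparison. Without control replicate 3 alone, Trp53 did not pass. Mdm4 differed by -0.24 (edgeR adjusted p = 0.156) and Ppm1d, the phosphatase that removes activating phosphates from p53, by -0.64 (edgeR adjusted p = 0.125).

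Apoptosis genes formed the group with the most calls, 9 rising and 1 falling of 11. Pmaip1, which encodes the BH3-only protein Noxa, had 3.35, 3.78 and 1.31 CPM in unirradiated and 16.8, 17.4 and 17 CPM in irradiated cells. The irradiated libraries were nearly equal and far above the controls, and Pmaip1 rose by 2.58 log2 units (SE 0.34, edgeR adjusted p = 0.000252). Aen, a nuclease active in apoptosis, had 49.6, 55.8 and 38.9 CPM in controls and 98.3, 97.6 and 91.4 CPM after irradiation. All 3 libraries were higher after irradiation, and Aen rose by 0.99 log2 units (SE 0.14, edgeR adjusted p = 0.000348). Death receptors rose too. Tnfrsf10b, the TRAIL receptor, rose by 1.26 log2 units (SE 0.24, edgeR adjusted p = 0.00267), and Fas rose by 0.58 log2 units (SE 0.18, edgeR adjusted p = 0.0266). The call of Fas was lost without control replicate 3 (0.49, edgeR adjusted p = 0.0506) and without irradiated replicate 1 or 2. Eda2r, another receptor of the TNF family, had 6.92, 6.82 and 1.69 CPM in controls and 17, 20.4 and 17.5 CPM after irradiation. Its call was lost in 7 of 16 other treatments. Among them were the fits without control replicate 3, the low library (1.47, edgeR adjusted p = 0.0996), without control replicate 1 and without any 1 irradiated library. Bbc3, which encodes the BH3-only protein Puma, Pidd1, a scaffold for caspase-2 activation, and Ei24 rose by 0.73, 0.96 and 0.53. Without control replicate 3, neither Bbc3 at 0.55 (edgeR adjusted p = 0.054) nor Pidd1 at 0.84 (edgeR adjusted p = 0.0905) passed, and they were lost in 7 and 5 of 16 other treatments of the data.

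Perp, a membrane protein of p53-dependent apoptosis and of desmosomes, was scarce, with 0.279, 0.493 and 0 CPM in controls and 3.38, 2.53 and 2.82 CPM after irradiation. It rose by 3.39 log2 units (SE 1.11, edgeR adjusted p = 0.0375), with the widest error of the group. The call of Perp was lost in 6 of 15 other treatments, among them the fit without control replicate 3 (2.95, edgeR adjusted p = 0.0769). Bax was the apoptosis gene that fell. It had 239, 180.3 and 303 CPM in controls and 164, 164 and 156 CPM after irradiation, so the irradiated libraries were just below the lowest control. Bax fell by 0.58 log2 units (SE 0.19, edgeR adjusted p = 0.0393), a call lost in 13 of 16 other treatments of the data, among them the fit without control replicate 3 at -0.32 (edgeR adjusted p = 0.238). Apaf1, the scaffold of the apoptosome, did not pass at -0.13 (edgeR adjusted p = 0.742).

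In growth restraint and stress signalling 6 of 9 genes rose and 1 fell. Ccng1, which encodes cyclin G1, had 75.3, 83.6 and 46.2 CPM in controls and 270.1, 285 and 281 CPM after irradiation. Its groups were far apart and it rose by 2.03 log2 units (SE 0.22, edgeR adjusted p = 7.1e-05), the lowest p of the members in this comparison. Plk2, a polo-like kinase induced by stress, had 103, 134 and 84.5 CPM in controls and 309, 287 and 309 CPM after irradiation. Every irradiated library exceeded every control by a wide margin, and Plk2 rose by 1.496 log2 units (SE 0.19, edgeR adjusted p = 0.000202). Zmat3, an RNA-binding zinc finger protein, had 46.5, 47.5 and 35.5 CPM in controls and 79.8, 74.9 and 75.6 CPM after irradiation. It was higher in all 3 irradiated libraries and rose by 0.83 log2 units (SE 0.14, edgeR adjusted p = 0.00105). Trp53inp1, a regulator of stress responses and autophagy, had 11, 12.6 and 4.60 CPM in controls and 26.4, 36.6 and 30.6 CPM after irradiation. Again no libraries overlapped, and Trp53inp1 rose by 1.72 log2 units (SE 0.32, edgeR adjusted p = 0.00246). Btg2, an antiproliferative factor that acts on mRNA deadenylation, rose by 0.88 and Phlda3 by 0.64. Plk3, a related polo-like kinase, did not pass at 0.71 (edgeR adjusted p = 0.218). Gadd45a, a classic stress gene of this pathway, had 118, 158 and 67.9 CPM in controls and 111, 125 and 99.7 CPM after irradiation. Those groups overlapped, with a difference of -0.04 (SE 0.27, edgeR adjusted p = 0.928).

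All 5 DNA repair genes were higher in every irradiated library than in any control, as were 27.3% of all genes, but 2 of the 5 passed. They were Polk, a translesion DNA polymerase, and Ercc5, the 3′ endonuclease of nucleotide excision repair. Polk had 4.10, 4.38 and 0.919 CPM in controls and 16.7, 17.2 and 15 CPM after irradiation, with control replicate 3 lowest, and it rose by 2.36 log2 units (SE 0.64, edgeR adjusted p = 0.0166). Ercc5 rose by 0.83 log2 units (SE 0.19, edgeR adjusted p = 0.00769). The damage sensors Xpc and Ddb2 differed by 0.86 (edgeR adjusted p = 0.0765) and 1.62 (edgeR adjusted p = 0.187). Rrm2b, a small subunit of ribonucleotide reductase, differed by 0.73 (edgeR adjusted p = 0.0791).

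Metabolic members moved both ways, with 1 rising, 2 falling and 4 not passing of 7. Ak1, an adenylate kinase that balances adenine nucleotides, had 158, 144 and 145 CPM in controls and 298, 278 and 281 CPM after irradiation. The spread within each group was small beside the gap, and Ak1 rose by 0.94 log2 units (SE 0.12, edgeR adjusted p = 0.000212). Fdxr, which passes electrons to ferredoxin in mitochondria, had 32.1, 19.7 and 48.8 CPM in controls and 14.2, 11.6 and 15.1 CPM after irradiation. The controls were uneven but all higher, and Fdxr fell by 1.301 log2 units (SE 0.33, edgeR adjusted p = 0.0111). Sesn1, a sestrin that restrains mTORC1, had 18.6, 17.5 and 21.9 CPM in controls and 10.5, 10.9 and 12.4 CPM after irradiation. All irradiated libraries were lower, and Sesn1 fell by 0.78 log2 units (SE 0.21, edgeR adjusted p = 0.0172). Its paralogue Sesn2 differed the other way without passing, at 0.53 (edgeR adjusted p = 0.0576). Without control replicate 3, neither Fdxr at -0.87 (edgeR adjusted p = 0.0603) nor Sesn1 at -0.62 (edgeR adjusted p = 0.0671) passed. Of 16 other treatments, Fdxr was lost in 2 and Sesn1 in 6, the latter also on both TPM scales and without any 1 irradiated library. Tigar, Dcxr and Abhd4 differed by 0.04, 0.19 and 0.04 and did not pass.

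Of the 5 remaining members 2 rose and 2 fell. Gdf15, a secreted stress cytokine of the TGF-beta family, had 9.40, 16.3 and 10.1 CPM in controls and 43.1, 37 and 36.6 CPM after irradiation. Every irradiated library was above the highest control, and Gdf15 rose by 1.70 log2 units (SE 0.41, edgeR adjusted p = 0.00988). Zfp365, a zinc finger gene, rose by 1.15 log2 units (SE 0.38, edgeR adjusted p = 0.037), a call lost in 6 of 16 other treatments, among them leaving out any 1 irradiated library or control replicate 1 or 2 (highest edgeR adjusted p = 0.114). Trp53i11 had 185, 254 and 184 CPM in controls and 55.5, 81.7 and 36.6 CPM after irradiation. It was lower in every irradiated library and fell by 1.84 log2 units (SE 0.33, edgeR adjusted p = 0.00176). Ptp4a3, a protein tyrosine phosphatase of the growth group, had 268, 275 and 284 CPM in controls and 113, 109.7 and 98 CPM after irradiation. These groups were also fully apart, and Ptp4a3 fell by 1.36 log2 units (SE 0.19, edgeR adjusted p = 0.000348). Trp53i13 fell by 0.94 log2 units (SE 0.25, edgeR adjusted p = 0.0156), with 51.2, 38.2 and 92.3 CPM in controls and 33.9, 28.8 and 32.2 CPM after irradiation. Its call was lost in 7 of 16 other treatments. Among them were the fits without control replicate 3 (-0.44, edgeR adjusted p = 0.0809), without any 1 irradiated library and on both TPM scales. Sulf2, an extracellular sulfatase, did not pass at 0.71 (edgeR adjusted p = 0.158).

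Of the 27 calls, 17 passed under all alternative treatments of the data. Leaving out irradiated replicate 2 gave 17 calls (15 up, 2 down) beside 2703 of 18638 genes, leaving out control replicate 3 gave 18 (16 up, 2 down) beside 3531 of 18544, and the 13 libraries without the pair that stood apart gave 36 (28 up, 8 down) beside 8561 of 18495 genes. On the TPM scale with a pseudocount of 1, without correction for composition, 26 members rose and 3 fell, while the median of all genes moved to 0.32. Proliferation markers (8 genes, among them Mki67 and Top2a) summed to 257 to 349 CPM in controls and 71.5 to 82.3 after irradiation, and all 8 fell. Of the endothelial markers 4 of 6 fell (227 to 627 CPM in controls, 65.1 to 199.7 after irradiation), and of the macrophage markers 1 of 8. All 5 tested epithelial markers fell, from sums of 4.06 to 17.8 CPM to 0.465 to 0.810 CPM. Their part in these differences was not tested, and the time in culture after irradiation cannot be told apart from the irradiation.

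**Figure D2:**
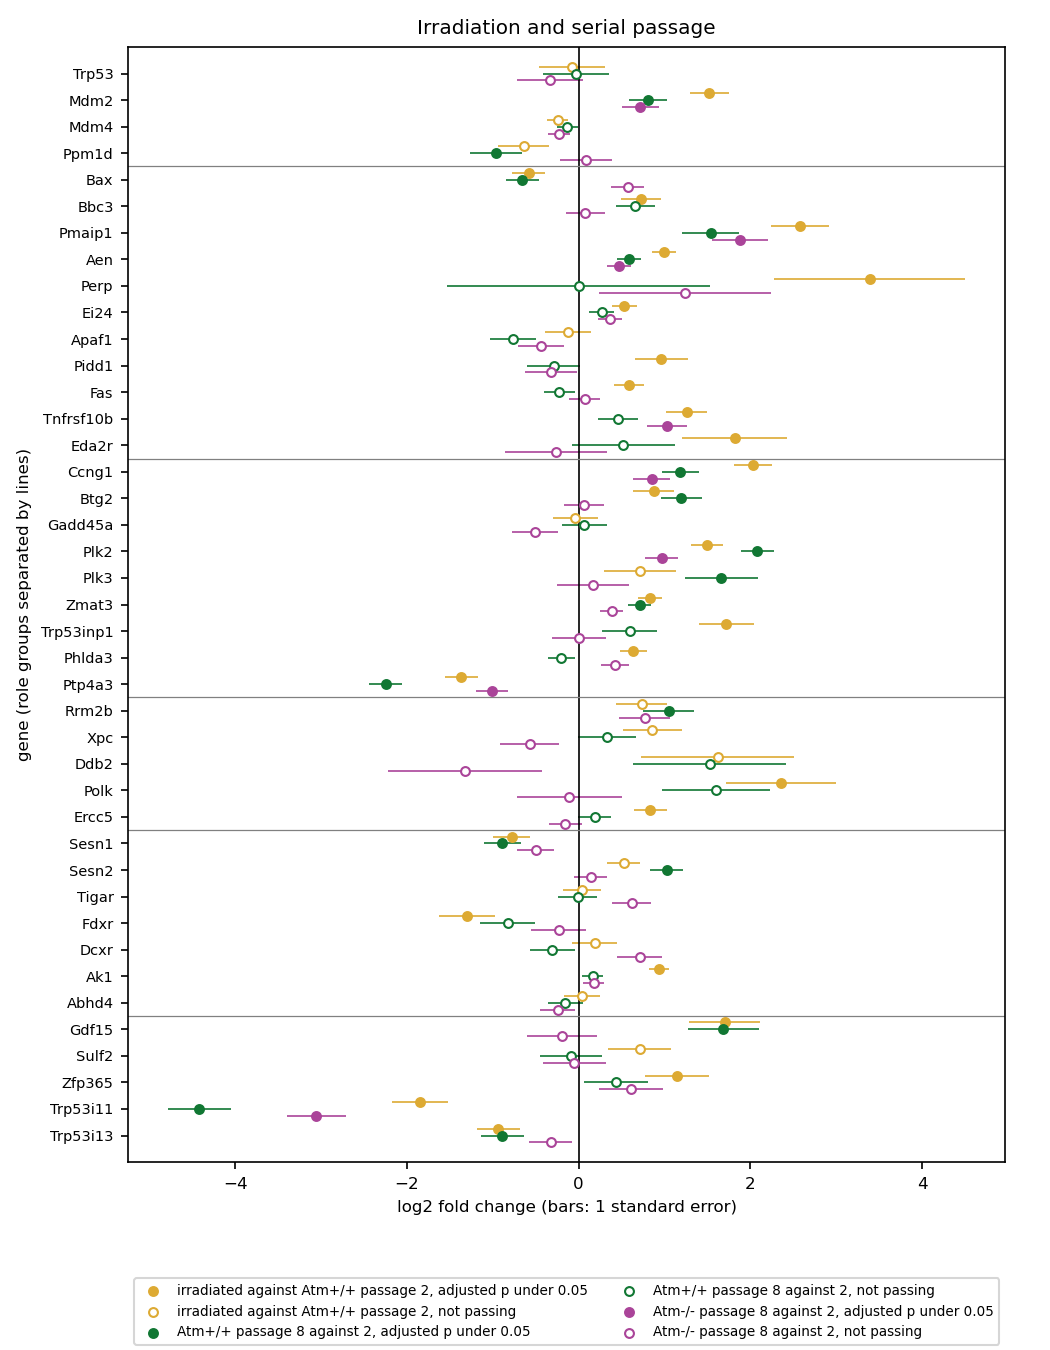
Log2 fold changes with 1 standard error (horizontal axis) of the 41 genes (vertical axis, in role groups) for irradiation and for passage in each genotype; filled points passed and open points did not. Irradiation and Atm+/+ passage share the Atm+/+ passage 2 libraries. Most filled points of irradiation lie right of 0, and Trp53i11 and Ptp4a3 lie left of 0 in all 3 comparisons.

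Irradiated cells were next set beside Atm+/+ cells at passage 8, which were cultured longer and not irradiated. Of the 41 members 8 were higher in irradiated cells and 0 lower, against 4.3% and 2.59% of all genes (6.89% either way). The median was 0.41 over the members and -0.01 over all genes. In 32 members the groups did not overlap, against 48.4% of all genes. Irradiated cells were higher in 25 of them and lower in 7, against 22.8% and 25.6% of all genes. At an unadjusted p under 0.05 there were 20 members, against 17.5% of all genes.

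Phlda3 had 230.1, 187 and 191 CPM at passage 8 and 386, 357 and 344 CPM after irradiation. All irradiated libraries were higher, with a difference of 0.84 (SE 0.16, edgeR adjusted p = 0.00491). Ak1 stood at 175, 164 and 162 CPM at passage 8, again below every irradiated library, and differed by 0.77 (SE 0.12, edgeR adjusted p = 0.00111). Ccng1 had 146, 152 and 168 CPM at passage 8, between the passage 2 controls and the irradiated cells, and differed by 0.84 (SE 0.21, edgeR adjusted p = 0.0285). Among apoptosis genes, Fas had 30.1, 31.8 and 32 CPM at passage 8 and 55.9, 56.8 and 51.5 CPM after irradiation. No libraries overlapped, and the difference was 0.81 (SE 0.18, edgeR adjusted p = 0.012). Pidd1 had 6.92, 8.21 and 7.44 CPM at passage 8 and 17.8, 16.2 and 19.7 CPM after irradiation. It was higher in every irradiated library, by 1.25 (SE 0.31, edgeR adjusted p = 0.0246). Trp53inp1 was higher by 1.13 (SE 0.32, edgeR adjusted p = 0.0496), with 16, 13 and 13.9 CPM at passage 8.

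Trp53i11 and Ptp4a3, which were below the passage 2 controls after irradiation, were above passage 8. Trp53i11 had 9.64, 10.4 and 9.09 CPM at passage 8, under the lowest irradiated library, and differed by 2.57 (SE 0.34, edgeR adjusted p = 3e-04). Ptp4a3 had 61.3, 56.2 and 56.9 CPM at passage 8 and differed by 0.88 (SE 0.19, edgeR adjusted p = 0.00957). Mdm2 had 72.6, 77.9 and 86 CPM at passage 8, below all irradiated libraries, but missed the threshold at 0.72 (SE 0.22, edgeR adjusted p = 0.0734). Trp53 was at 75.4, 71.9 and 78.2 CPM at passage 8 and differed by -0.05 (SE 0.38, edgeR adjusted p = 0.992). Plk2, Plk3 and Sesn2 had lower levels in irradiated than in passage 8 cells without passing, at -0.59 (edgeR adjusted p = 0.0865), -0.95 (edgeR adjusted p = 0.248) and -0.50 (edgeR adjusted p = 0.17).

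Ak1, Phlda3 and Trp53i11 passed in all alternative treatments. Of 16 other treatments, Trp53inp1 was lost in 10, Ccng1 in 9, Pidd1 in 7, Ptp4a3 in 3 and Fas in 2. Trp53inp1, Ccng1 and Pidd1 were each lost without any 1 of the 6 libraries compared. Leaving out any 1 of the 6 libraries lowered the count, to 5 without irradiated replicate 1, 2 or 3 or without Atm+/+ passage 8 replicate 3, to 4 without passage 8 replicate 1 and to 3 without passage 8 replicate 2. All genes passing then numbered 722 to 843, against 1252 in the main fit. A fit of these 6 libraries alone gave 28 calls (23 higher, 5 lower) and the 13 libraries gave 25 (22 higher, 3 lower), beside 6214 of 17056 and 4710 of 18495 genes. Macrophage markers were higher in irradiated cells for 7 of 8 and endothelial markers for 6 of 6, with the sums given above for macrophages and 2.09 to 3.19 CPM at passage 8 for endothelial genes, while 5 of 8 proliferation markers were lower. Their part in the differences was not tested.

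Between passage 2 and passage 8 of Atm+/+ cells 11 members rose and 6 fell, against 9.8% and 13.5% of all genes (23.3% either way). The median over the members was 0.19, against 0.00 over all genes. Growth restraint and stress signalling held 5 of the 11 rises, among them Plk2, Plk3, Ccng1 and Btg2. The passage 2 libraries are the same controls as for irradiation, so the values of both comparisons share their errors. At an unadjusted p under 0.05 there were 21 members, against 37.8% of all genes. In 25 members the groups did not overlap, against 47.5% of all genes.

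Plk2 had 446, 426 and 488 CPM at passage 8, all far above the 84.5 to 134 CPM of passage 2, and rose by 2.08 log2 units (SE 0.19, edgeR adjusted p = 7.31e-06). Ccng1 rose by 1.18 log2 units (SE 0.22, edgeR adjusted p = 0.00157), with every passage 8 library above every passage 2 library. Btg2 had 172, 202 and 114 CPM at passage 2 and 377, 335 and 405 CPM at passage 8. All 3 libraries were higher at passage 8, and Btg2 rose by 1.20 log2 units (SE 0.24, edgeR adjusted p = 0.003). Zmat3 had 69.8, 70.7 and 71.5 CPM at passage 8 and rose by 0.71 log2 units (SE 0.14, edgeR adjusted p = 0.00213). Plk3 had 19.1, 26.4 and 13.5 CPM at passage 2 and 68.7, 52.2 and 66.4 CPM at passage 8. Its groups were fully apart, and it rose by 1.66 log2 units (SE 0.43, edgeR adjusted p = 0.0137).

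Sesn2, which restrains mTORC1 under stress, had 56.9, 71.8 and 52.4 CPM at passage 2 and 124, 118 and 127 CPM at passage 8. These groups did not overlap, and Sesn2 rose by 1.03 log2 units (SE 0.19, edgeR adjusted p = 0.00202). Sesn1 moved the other way, with 10.4, 9.74 and 11.1 CPM at passage 8, and fell by 0.89 log2 units (SE 0.22, edgeR adjusted p = 0.00979). Gdf15 had 45.7, 31.7 and 38 CPM at passage 8, above all passage 2 libraries, and rose by 1.69 log2 units (SE 0.41, edgeR adjusted p = 0.011). Pmaip1 stood at 8.81, 8.52 and 7.47 CPM at passage 8 and rose by 1.54 log2 units (SE 0.33, edgeR adjusted p = 0.00483). Aen, at 73.6, 69.1 and 74 CPM, rose by 0.59 log2 units (SE 0.14, edgeR adjusted p = 0.00802). Mdm2 rose by 0.81 log2 units (SE 0.22, edgeR adjusted p = 0.0185) and Rrm2b, which supplies nucleotides for repair, rose by 1.05 log2 units (SE 0.30, edgeR adjusted p = 0.0216). Trp53 differed by -0.03 (SE 0.39, edgeR adjusted p = 0.963), with overlapping groups.

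The widest differences of any member in this comparison were declines. Trp53i11 dropped from 184 to 254 CPM at passage 2 to 9.09 to 10.4 CPM at passage 8, and it fell by 4.42 log2 units (SE 0.37, edgeR adjusted p = 3.39e-06). Ptp4a3 went from 268 to 284 CPM to 56.2 to 61.3 CPM and fell by 2.24 log2 units (SE 0.19, edgeR adjusted p = 4.1e-06). Bax had 160.2, 163 and 135 CPM at passage 8, below all passage 2 libraries, and fell by 0.66 log2 units (SE 0.19, edgeR adjusted p = 0.026). Ppm1d had 13.1, 11.8 and 17.4 CPM at passage 2 and 6.63, 7.90 and 7.16 CPM at passage 8. All passage 8 libraries were lower, and Ppm1d fell by 0.96 log2 units (SE 0.30, edgeR adjusted p = 0.0355). Trp53i13 fell by 0.89 log2 units (SE 0.25, edgeR adjusted p = 0.0221). Without passage 2 replicate 3 neither Bax (-0.42, edgeR adjusted p = 0.132), Ppm1d (-0.75, edgeR adjusted p = 0.126) nor Trp53i13 (-0.42, edgeR adjusted p = 0.105) passed. Of 16 other treatments, these calls were lost in 7, 6 and 4.

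All 8 macrophage markers, all 6 endothelial markers and all 5 tested epithelial markers fell with passage in Atm+/+ cells. Endothelial markers summed to 227 to 627 CPM at passage 2 and 2.09 to 3.19 at passage 8, and epithelial markers to 4.06 to 17.8 and 0.287 to 0.878 CPM. Proliferation markers fell in 5 of 8 (257 to 349 CPM at passage 2, 175 to 207 at passage 8), and mesothelial markers rose in 2 of 3 tested (0.726 to 1.096 and 2.75 to 4.28 CPM). At passage 8, Ptprc was at 0 in replicate 2, Fcgr1 in replicate 1 and Kdr in replicate 2. Trp53i11 and Ptp4a3 fell in the same libraries as these markers, and the part of any of these markers in the members' differences was not tested. Of the 17 calls 10 passed in all alternative treatments, and the 13 libraries gave 23 calls (15 up, 8 down) beside 7418 of 18495 genes.

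**Figure D3:**
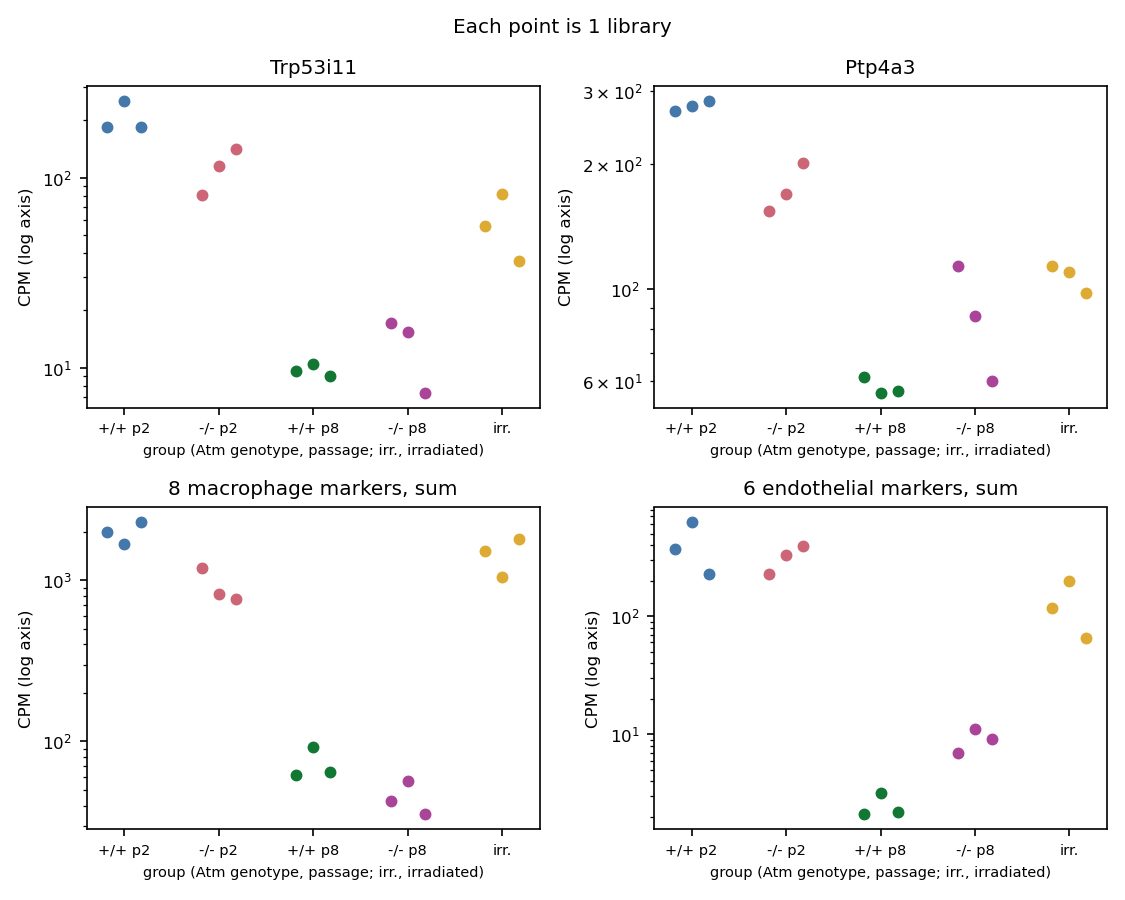
Levels in CPM (log axis) of Trp53i11, Ptp4a3, and the sums of 8 macrophage and 6 endothelial markers, 1 point per library in the 5 groups. Trp53i11 and both marker sums are lowest at passage 8 in either genotype, and for Trp53i11 irradiated cells lie between Atm+/+ passage 2 and Atm+/+ passage 8.

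In Atm-/- cells 6 members rose and 2 fell with passage, against 4.76% and 8.25% of all genes (13% either way). The median was 0.07 over the members and -0.08 over all genes. Pmaip1, Tnfrsf10b and Aen of the apoptosis group, Plk2 and Ccng1 of the growth group and Mdm2 rose, while Trp53i11 and Ptp4a3 fell. At an unadjusted p under 0.05 there were 16 members, against 28% of all genes. In 19 members the groups did not overlap, against 37% of all genes.

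Pmaip1 had 6.67, 5.41 and 5.24 CPM at passage 2 and 29.9991, 17.5 and 16.2 CPM at passage 8. Every passage 8 library was well above passage 2, with replicate 1 the highest, and Pmaip1 rose by 1.88 log2 units (SE 0.33, edgeR adjusted p = 0.00164). Tnfrsf10b had 13, 12.4 and 12.5 CPM at passage 2 and 23.6, 16.3 and 38 CPM at passage 8. The passage 8 libraries were all higher but unequal, and Tnfrsf10b rose by 1.03 log2 units (SE 0.24, edgeR adjusted p = 0.0104). Plk2 had 137, 132 and 154 CPM and 305, 318 and 202 CPM at the earlier and later passage. It was higher in each passage 8 library and rose by 0.97 log2 units (SE 0.19, edgeR adjusted p = 0.00345). Ccng1 had 128, 136 and 122 CPM at passage 2 and 310.3, 196 and 191 CPM at passage 8. No libraries overlapped, and Ccng1 rose by 0.85 log2 units (SE 0.21, edgeR adjusted p = 0.017). Mdm2 had 67, 68.3 and 62.9 CPM at passage 2 and 157, 103 and 66.5 CPM at passage 8. Here replicate 3 overlapped passage 2 while replicates 1 and 2 were above, and Mdm2 rose by 0.72 log2 units (SE 0.22, edgeR adjusted p = 0.0451). Aen rose by 0.47 log2 units (SE 0.14, edgeR adjusted p = 0.0361).

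Trp53i11 had 80.9, 115 and 141 CPM at passage 2 and 17.3, 15.4 and 7.36 CPM at passage 8. It was lower in each passage 8 library and fell by 3.06 log2 units (SE 0.34, edgeR adjusted p = 6.36e-05). Ptp4a3 had 154, 169 and 201 CPM at passage 2 and 114, 85.9 and 59.97 CPM at passage 8. Its groups were apart too, and it fell by 1.01 log2 units (SE 0.19, edgeR adjusted p = 0.00239). Trp53 had 86.3, 95 and 83.3 CPM at passage 2 and 98.2, 89.4 and 21.5 CPM at passage 8. Replicate 3 at passage 8 stood far below all other libraries, and the difference was -0.33 (SE 0.39, edgeR adjusted p = 0.613). Gdf15 likewise had 26.2, 32.2 and 6.40 CPM at passage 8 and 26.3, 20.9 and 27.6 CPM at passage 2, with a difference of -0.19 (SE 0.40, edgeR adjusted p = 0.794). Btg2 and Sesn2 differed by 0.06 (edgeR adjusted p = 0.885) and 0.14 (edgeR adjusted p = 0.67).

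Pmaip1 and Trp53i11 passed in all alternative treatments. Aen was lost in 9 of 16 other treatments. Mdm2 was lost without any 1 Atm-/- passage 2 library and without passage 8 replicate 1 (0.38, edgeR adjusted p = 0.136). With a pseudocount of 1 on the TPM scale, Mdm2 (0.27, limma adjusted p = 0.559) and Aen (0.11, limma adjusted p = 0.738) did not pass. Neither did Ccng1 (0.46, limma adjusted p = 0.352) nor Plk2 (0.58, limma adjusted p = 0.246). The count was 5 without Atm-/- passage 2 replicate 1 or 3, beside 1747 of 18642 and 1476 of 18648 genes. It was 12 without passage 8 replicate 2, beside 3246 of 18683 genes, and 2 in a fit of these 6 libraries alone, beside 868 of 16969. The 13 libraries gave 19 (13 up, 6 down), beside 5026 of 18495 genes. On the TPM scale with a pseudocount of 1, where the median of all genes moved to -0.32, 2 members rose and 4 fell, and 26 of the 41 differences were below 0 against 18 on the main scale. All 8 macrophage and all 6 endothelial markers fell here as well (endothelial sums 229 to 395 CPM at passage 2 and 6.93 to 11.0 at passage 8), with Ptprc and Adgre1 at 0 in all 3 passage 8 libraries. Of the fibroblast markers 5 of 8 fell, as did 2 of 5 epithelial and 2 of 8 proliferation markers, while 2 of 3 mesothelial markers rose (0.682 to 1.65 CPM at passage 2, 10.1 to 46.5 at passage 8), and the part of the cell makeup in these results was not tested.

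Whether passage acted differently in the genotypes was tested as the difference of the passage effects, Atm-/- minus Atm+/+. It passed for 3 members, 2 with a positive and 1 with a negative difference, against 2.46% and 1.97% of all genes (4.43% either way). At an unadjusted p under 0.05 the difference was called in 12 members, against 29.6% of all genes. For Bax the passage effect was -0.66 in Atm+/+ and 0.57 in Atm-/- cells, a difference of 1.23 (SE 0.27, edgeR adjusted p = 0.0301). For Ptp4a3 the effects were -2.24 and -1.01, a difference of 1.23 (SE 0.26, edgeR adjusted p = 0.0261). For Plk2 they were 2.08 and 0.97, a difference of -1.12 (SE 0.26, edgeR adjusted p = 0.0374). Btg2 (-1.13, edgeR adjusted p = 0.0604), Gdf15 (-1.88, edgeR adjusted p = 0.0647) and Sesn2 (-0.88, edgeR adjusted p = 0.0652) did not pass, although passage was called for each in Atm+/+ and not in Atm-/- cells. The 3 calls changed with single libraries. The count was 0 without Atm+/+ passage 2 replicate 1 or any 1 of the Atm-/- passage 2 or the Atm+/+ passage 8 libraries, and in a fit of only these 12 libraries, but 1 without Atm+/+ passage 2 replicate 3. All genes passing numbered 79 to 182 without those single libraries, 120 in the 12 libraries and 432 without that replicate 3. The count was 10 without Atm+/+ passage 2 replicate 2, beside 4600 of 18651 genes. Leaving out Atm-/- passage 8 replicate 2 or 3 gave 7 or 5, beside 2965 of 18683 and 1079 of 18632 genes. It was 8 (3 positive, 5 negative) in the 13 libraries, beside 2556 of 18495 genes, and 0 with strains as a block within genotype. On the TPM scale with a pseudocount of 1, 0 members had a positive and 1 a negative call.

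The genotypes were first compared at passage 2. None of the 41 members passed in edgeR, against 0.969% of all genes (0.628% higher and 0.341% lower in Atm-/-). At an unadjusted p under 0.05 there were 11 (16.1% of all genes). DESeq2 called 5, beside 918 of 18132 genes. The median difference was 0.21 over the members and 0.04 over all genes, and 28 of the 41 were above 0. In 18 members the genotypes did not overlap, against 25.8% of all genes. Of these, 14 were higher and 4 lower in Atm-/-, against 13.7% and 12.1% of all genes. Ccng1 had 128, 136 and 122 CPM in Atm-/- cells, all above the 46.2 to 83.6 CPM of Atm+/+ cells, with a difference of 0.91 (SE 0.21, edgeR adjusted p = 0.0682). Mdm2 stood at 67, 68.3 and 62.9 CPM in Atm-/- cells, again above all Atm+/+ libraries, with 0.55 (SE 0.22, edgeR adjusted p = 0.267). Pmaip1 at 6.67, 5.41 and 5.24 CPM differed by 1.02 (SE 0.33, edgeR adjusted p = 0.184). Ptp4a3 at 154, 169 and 201 CPM was below all Atm+/+ libraries, at -0.66 (SE 0.19, edgeR adjusted p = 0.128). Trp53 differed by 0.20 (SE 0.39, edgeR adjusted p = 0.801).

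The count at passage 2 moved with the libraries used. Without Atm+/+ passage 2 replicate 2 it was 6 (5 higher, 1 lower) beside 1787 of 18651 genes. Without Atm+/+ passage 2 replicate 3 alone it was 0, beside 125 of 18544 genes. In the 13 libraries, which also lack Atm-/- passage 8 replicate 3, it was 7, beside 989 of 18495 genes. In the 13 libraries Ccng1 was at 0.72 (edgeR adjusted p = 0.0177), Mdm2 at 0.61 (edgeR adjusted p = 0.0275), Polk at 0.94 (edgeR adjusted p = 0.0089), Gdf15 at 0.97 (edgeR adjusted p = 0.0233), Zmat3 at 0.35 (edgeR adjusted p = 0.0206) and Zfp365 at 0.69 (edgeR adjusted p = 0.0399), all higher in Atm-/-. Ptp4a3 was lower there, at -0.62 (edgeR adjusted p = 0.0154). None of the 8 macrophage markers passed in edgeR, but 6 had an unadjusted p under 0.05, all with lower values in Atm-/- cells, and their part in the values of Ptp4a3 was not tested.

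At passage 8, 4 members were higher and 3 lower in Atm-/- than in Atm+/+ cells, against 5.03% and 4.29% of all genes (9.32% either way). Bax, Pmaip1 and Tnfrsf10b of the apoptosis group and Phlda3 of the growth group were higher. Btg2 and Plk2, also of the growth group, and Sesn2 of the metabolism group were lower. The growth group thus moved both ways, with 1 higher and 2 lower of 9. The median was 0.21 over the members and -0.08 over all genes. Of the 41 differences 25 were above 0, against 13 on the TPM scale with a pseudocount of 1, where the median of all genes moved to -0.29. At an unadjusted p under 0.05 there were 18 members, against 28.9% of all genes. In 14 members the genotypes did not overlap, against 39.8% of all genes.

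Bax had 160.2, 163 and 135 CPM in Atm+/+ and 306, 245 and 362 CPM in Atm-/- cells. Every Atm-/- library was higher, and Bax differed by 0.99 (SE 0.19, edgeR adjusted p = 0.00744). Pmaip1 had 8.81, 8.52 and 7.47 CPM in Atm+/+ cells against 29.9991, 17.5 and 16.2 CPM in Atm-/-. The lowest Atm-/- library was about level with the irradiated cells, and the difference was 1.36 (SE 0.32, edgeR adjusted p = 0.02). Tnfrsf10b had 14, 13.3 and 15.3 CPM in Atm+/+ and 23.6, 16.3 and 38 CPM in Atm-/- cells. Replicate 3 was highest, and the difference was 0.86 (SE 0.24, edgeR adjusted p = 0.0386). Phlda3 had 230.1, 187 and 191 CPM in Atm+/+ and 281, 285 and 382 CPM in Atm-/- cells. No libraries overlapped, and it differed by 0.64 (SE 0.16, edgeR adjusted p = 0.0257).

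Btg2 had 219, 252 and 158 CPM in Atm-/- cells, all below the 335 to 405 CPM of Atm+/+ cells, and differed by -0.83 (SE 0.24, edgeR adjusted p = 0.0447). Plk2 had 305, 318 and 202 CPM in Atm-/- cells, below the 426 to 488 CPM of Atm+/+, and differed by -0.72 (SE 0.19, edgeR adjusted p = 0.0306). Sesn2 at 63.3, 95.7 and 51.2 CPM was below the 118 to 127 CPM of Atm+/+, with -0.81 (SE 0.19, edgeR adjusted p = 0.021). These 3 genes had risen with passage in Atm+/+ cells, but both comparisons use the same Atm+/+ passage 8 libraries and share their errors. Mdm2 had 157, 103 and 66.5 CPM in Atm-/- cells against 72.6, 77.9 and 86 CPM in Atm+/+, with replicate 3 the lowest of the 6 libraries, and missed the threshold at 0.46 (SE 0.22, edgeR adjusted p = 0.179). Trp53 differed by -0.10 (SE 0.39, edgeR adjusted p = 0.881), with Atm-/- replicate 3 low and the other 2 above all Atm+/+ libraries. Plk3, another gene that rose with passage in Atm+/+ cells, had 37.5, 35.3 and 7.10 CPM in Atm-/- cells and differed by -1.22 (SE 0.42, edgeR adjusted p = 0.0813).

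None of the 7 calls passed in all alternative treatments, and Bax, lost in 1 of 15, was the steadiest. The count was 2, 1 and 1 without Atm+/+ replicates 1, 2 and 3, beside 671, 732 and 588 genes, and 3 without Atm-/- replicate 1, beside 1325. It was 0 in a fit of these 6 libraries alone, beside 18 of 16223 genes. On either TPM scale it was 2 (Bax and Sesn2), beside 1370 and 1223 of 17295 genes. Without Atm-/- replicate 3 the count was 9, beside 1801 of 18632 genes. Tnfrsf10b at 0.50 (edgeR adjusted p = 0.0744), Btg2 at -0.65 (edgeR adjusted p = 0.116) and Plk2 at -0.53 (edgeR adjusted p = 0.0622) no longer passed there. The 13 libraries gave 21 calls (16 higher, 5 lower) beside 4629 of 18495 genes, among them Mdm2 at 0.74 (edgeR adjusted p = 0.00252), Ccng1 at 0.73 (edgeR adjusted p = 0.00422), Trp53 at 0.34 (edgeR adjusted p = 0.0142) and Perp at 3.51 (edgeR adjusted p = 0.00132). With the replicate number as a block, the count was 6, beside 1502 of 18167 genes, and Btg2 did not pass. Fibroblast markers fell in Atm-/- cells for 7 of 8 genes and endothelial markers were higher for 3 of 6. Mesothelial markers were higher for 2 of 3 tested (10.1 to 46.5 CPM against 2.75 to 4.28 CPM) and macrophage markers lower for 2 of 8, and their part in these differences was not tested.

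**Figure D4:**
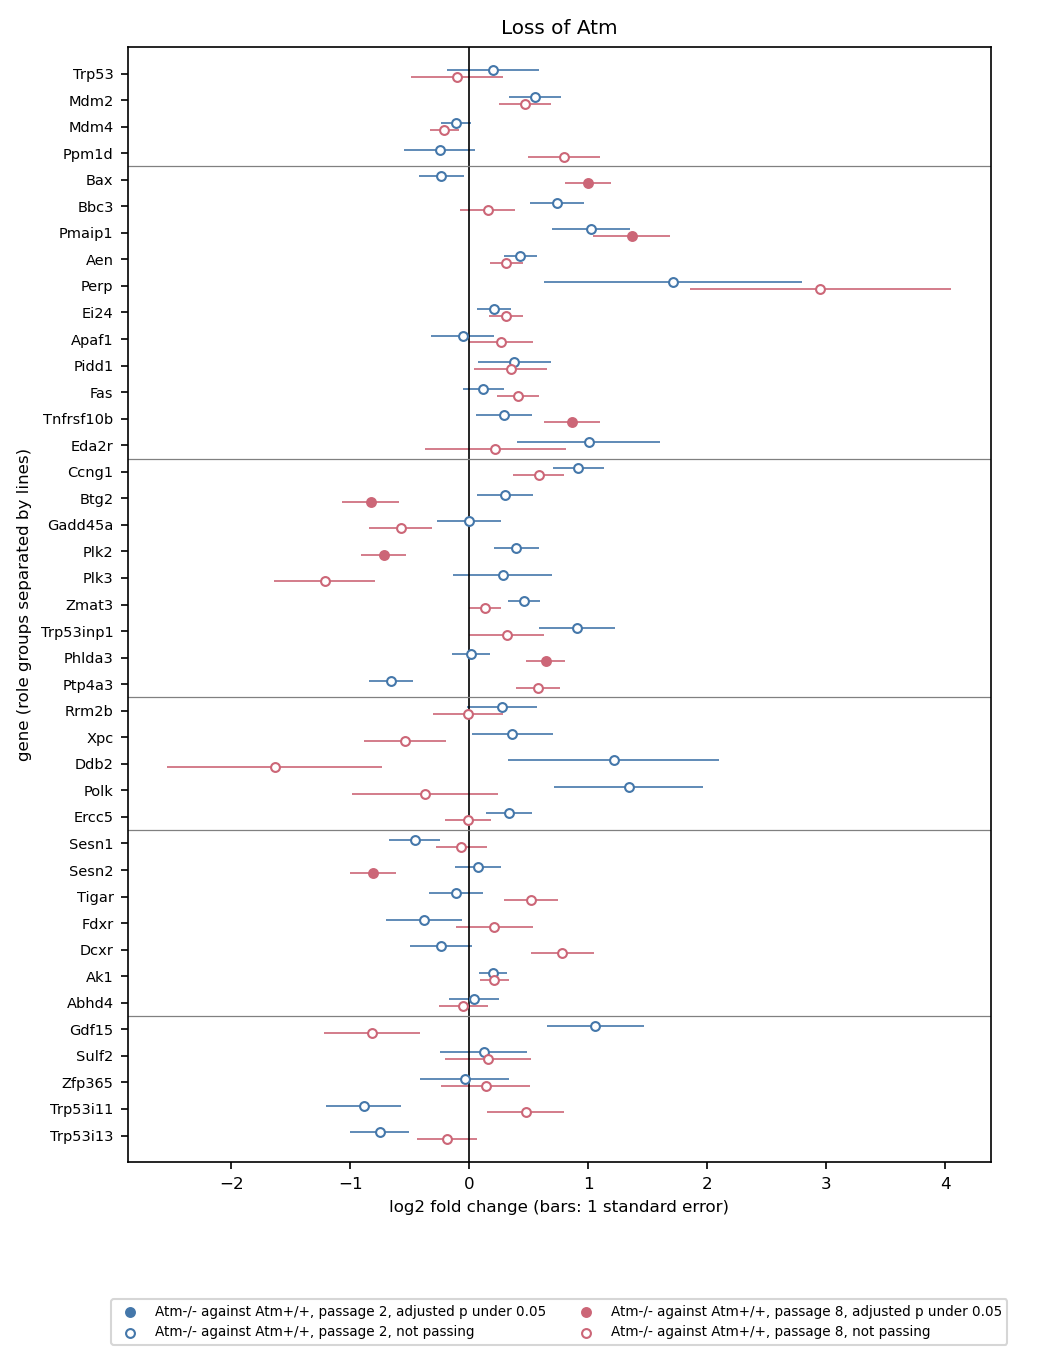
Log2 fold changes of Atm-/- against Atm+/+ cells with 1 standard error (horizontal axis) for the 41 genes (vertical axis, in role groups) at passage 2 and passage 8; filled points passed. No point passed at passage 2, and 4 higher and 3 lower genes passed at passage 8.

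**Figure D5:**
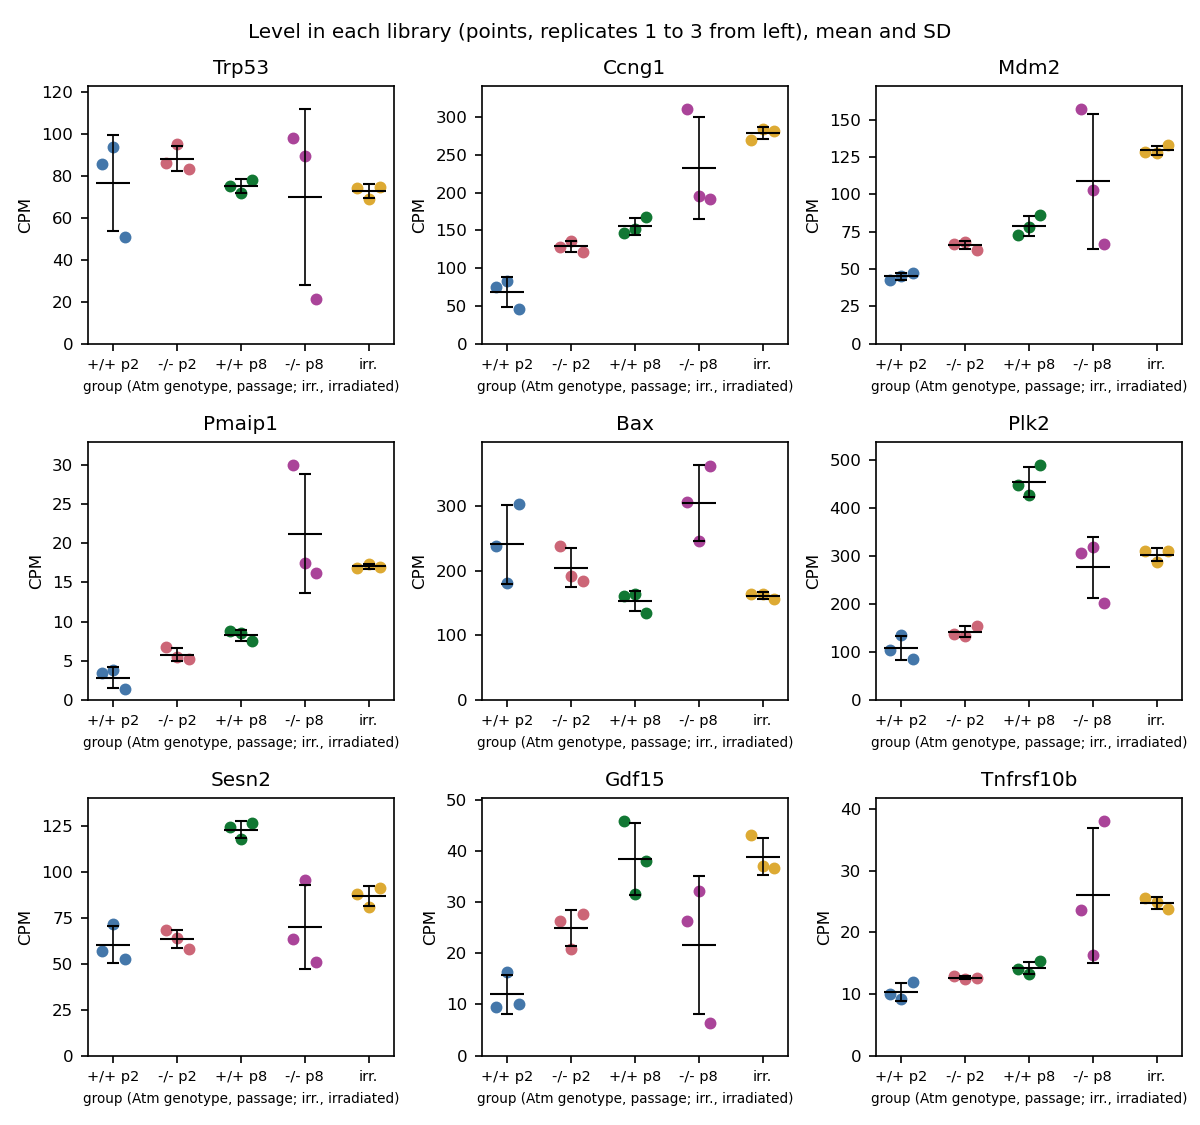
Level in CPM (vertical axes, each from 0) of 9 genes in every library of the 5 groups, with the mean and SD of 3 replicates. Trp53 is lowest in replicate 3 of Atm+/+ passage 2 and of Atm-/- passage 8, Ccng1, Mdm2 and Pmaip1 are lowest in Atm+/+ passage 2, and Plk2 and Sesn2 are highest in Atm+/+ passage 8.

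Other genes of the pathway were read from a pair of lists. Of 28 further p53 targets 27 were tested, and after irradiation 11 rose and 4 fell against passage 2, beside 11% and 16.5% of all genes. Cdkn1a, the CDK inhibitor p21 that arrests the cell cycle, had 269, 247 and 242 CPM in controls and 1008, 924 and 899 CPM after irradiation. No libraries overlapped, and it rose by 1.90 log2 units (SE 0.13, edgeR adjusted p = 2.93e-06). Igfbp3, which binds insulin-like growth factors, fell by 2.02 log2 units (SE 0.49, edgeR adjusted p = 0.00993). Against passage 8, 3 of 27 were higher and 0 lower (all genes 4.3% and 2.59%), with Cdkn1a at 1.29 (SE 0.13, edgeR adjusted p = 5.53e-05). With passage in Atm+/+ cells 7 rose and 1 fell (all genes 9.8% and 13.5%), Cdkn1a by 0.62 (SE 0.13, edgeR adjusted p = 0.00441). In Atm-/- cells 6 rose and 2 fell (all genes 4.76% and 8.25%), and Cdkn1a did not pass at 0.26 (edgeR adjusted p = 0.21). At passage 2, 3 were higher in Atm-/- cells (0.628% of all genes), among them Cdkn1a (0.72, edgeR adjusted p = 0.0183) and Tap1 (0.74, edgeR adjusted p = 0.0396), and 0 were lower, with Cdkn1a at 457, 428 and 361 CPM in all 3 Atm-/- libraries against 242 to 269 CPM in Atm+/+. At passage 8, 4 were higher, among them Pml (0.85, edgeR adjusted p = 0.00109), and 4 lower, among them Lif (-1.12, edgeR adjusted p = 0.00565), beside 5.03% and 4.29% of all genes, with Cdkn1a at 0.36 (edgeR adjusted p = 0.0902).

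Of 22 regulators of p53, 20 were tested. Cdkn2a, whose Arf product holds back Mdm2, had 15.4, 9.42 and 29.5 CPM in Atm+/+ and 19.5, 10.9 and 11.2 CPM in Atm-/- cells at passage 2. At passage 8 it had 53.1, 37.4 and 52.3 CPM in Atm+/+ and 238, 137 and 194 CPM in Atm-/- cells, and it was at 8.98, 6.87 and 16.2 CPM after irradiation. It rose by 1.40 log2 units (SE 0.41, edgeR adjusted p = 0.0259) with passage in Atm+/+ cells and rose by 3.78 log2 units (SE 0.45, edgeR adjusted p = 8.9e-05) in Atm-/- cells, and at passage 8 it was higher in Atm-/- by 2.00 (SE 0.41, edgeR adjusted p = 0.0102). In irradiated cells it was below passage 8, at -2.16 (SE 0.42, edgeR adjusted p = 0.00571). The difference of its passage effects passed too, at 2.38 (SE 0.58, edgeR adjusted p = 0.041), the only regulator of the 20 to do so. That call was not checked in the alternative treatments. All genes passing this test numbered 804, and 79 to 4600 when single libraries were left out. Gene counts do not separate the Arf and p16 transcripts of Cdkn2a. After irradiation 4 regulators rose (11% of all genes), among them Trp53bp2, and 5 fell (16.5% of all genes), among them Rpl11 (-1.09, edgeR adjusted p = 0.00153), a ribosomal protein that binds Mdm2. With passage 3 rose and 0 fell in Atm+/+ cells, beside 9.8% and 13.5% of all genes, and 1 rose and 1 fell in Atm-/- cells, beside 4.76% and 8.25%. Between genotypes 0 of 20 passed at passage 2 in edgeR (1 at an unadjusted p under 0.05) and Cdkn2a alone passed at passage 8, beside 0.969% and 9.32% of all genes.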

How the data were processed

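RNA of 15 libraries in 5 groups of 3 was sequenced after a TruSeq RNA preparation, per the labels' protocols. The authors deposited raw read counts per Ensembl gene, made with featureCounts on mm10 with SAMtools 1.3.1 in use, per the submitters' processing notes, and a table of TPM values that the authors deposited for the same libraries. The aligner, like the strand setting, is not given in the sources used here. Of the 41 members, 16 overlap another annotated gene, 11 of them one on the opposite strand, so reads of Bax, Ddb2, Plk3, Polk, Sulf2 and Trp53i13, whose partner is protein-coding, may be shared.

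IDs were matched to symbols in a GENCODE gene table. Counts were filtered with filterByExpr, scaled by TMM and tested in 1 model of the 5 groups with edgeR 4.0.16 (quasi-likelihood) in R 4.3.3, with Benjamini-Hochberg adjustment over all 18167 tested genes. A call needed an adjusted p under 0.05. The scripts were tested on simulated counts. Alternatives were DESeq2 1.42.0, other size factors and filters, only the groups compared, limma 3.58.1 on log2(TPM + 1) and log2(TPM + 0.1) of genes with at least 0.5 TPM in 3 libraries, the replicate number as a block, and each library left out. The fit of 13 libraries and the block of strain within genotype were chosen after seeing the data. The members and lists were chosen with earlier results of these data known. Named in full were the members passing in each comparison, at most 8 per direction by lowest p, with Trp53, Mdm2 and members whose direction differed between comparisons, and other members served as examples. P-values measure the spread between these libraries.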

Additional observations from a re-analysis of the deposited data

Results flagged for a closer look

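The passage effect differed between the genotypes, by a test of the difference itself, for 3 members. For Bax the difference, Atm-/- minus Atm+/+, was 1.23 on the log2 scale, for Ptp4a3 it was 1.23 and for Plk2 it was -1.12. Ptp4a3 fell with passage in both genotypes and Plk2 rose in both. Bax fell with passage in Atm+/+ cells and did not pass in Atm-/- cells, where its 3 passage 8 libraries were above all passage 2 libraries. None of the 3 calls passed under all alternative treatments of the data.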

How the results depend on the processing

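The counts of members passing at passage 2 between genotypes (0), at passage 8 between genotypes (7), with passage in Atm-/- cells (8), against passage 8 after irradiation (8) and for the difference of passage effects (3) moved with the processing, and the cause was not tested. With DESeq2 they were 5 and 12 between genotypes at passage 2 and 8, beside 918 of 18132 and 3592 of 17779 genes. They were 8 for the difference of passage effects, beside 3622 of 16371 genes. For irradiated against passage 8 the count was 15, beside 2005 of 18132 genes. A strict filter gave 1 at passage 2 between genotypes, beside 184 of 13858 genes. Fitting only the groups compared gave 0 at passage 8 between genotypes, 2 with passage in Atm-/-, 28 for irradiated against passage 8 and 0 for the difference. All genes passing in these fits numbered 18, 868, 6214 and 120. On log2(TPM + 1) and on log2(TPM + 0.1) the count was 2 at passage 8 between genotypes, and 1 and 0 for the difference. All genes passing there numbered 1370 and 1223 between genotypes, and 833 and 370 for the difference. The 13 libraries gave 7 and 21 between genotypes, 19 with passage in Atm-/-, 25 for irradiated against passage 8 and 8 for the difference, and turned the sign of Zfp365 at passage 2 (0.69) and of Trp53 at passage 8 (0.34) between genotypes. Leaving out each library gave 0 to 6 and 1 to 10 between genotypes at passage 2 and 8, 12 to 21 and 5 to 12 with passage in Atm+/+ and Atm-/-, 17 to 29 and 3 to 5 for irradiated cells against passage 2 and 8, and 0 to 10 for the difference. All genes passing moved in these fits too, from 61 to 1787 between genotypes at passage 2 and from 79 to 4600 for the difference. They ran from 588 to 3300 between genotypes at passage 8. With passage they ran from 2186 to 6560 in Atm+/+ and from 1476 to 3246 in Atm-/- cells. For irradiated cells they ran from 2677 to 6946 against passage 2 and from 722 to 843 against passage 8. Passage in Atm+/+ (17) stayed within 1.5 times in all alternatives run, and irradiated against passage 2 (27) in all but the fit without irradiated replicate 2.

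With the replicate number as a block the counts were 0 and 6 between genotypes, 18 and 7 with passage in Atm+/+ and Atm-/-, 29 and 8 for irradiated cells and 3 for the difference. In the same order, all genes passing with that block numbered 141, 1502, 4115, 2232, 4823, 1156 and 577. Btg2 between genotypes at passage 8, Mdm2 with passage in Atm-/- and Trp53inp1 against passage 8 did not pass there. With strain within genotype as the block the difference gave 0, beside 144 of 18167 genes. Correlations of same-numbered libraries ran from -0.2022 to 0.2187. The highest was between Atm+/+ and Atm-/- cells at passage 2, which hold separate strains. With 3 libraries per group such values cannot settle which libraries share a strain, and the main fit had no block. Whether the numbers name strains is not stated, and some Atm+/+ libraries must share a strain. Low counts limit Perp, Ddb2 and Rrm2b.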
